A study of Mus musculus with 8 samples.

Results

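The genes described here are the enzymes that cut and rejoin antigen receptor genes: Rag1, Rag2, Dntt, Lig4, Xrcc4, Xrcc5, Xrcc6, Prkdc, Dclre1c and Nhej1. They were chosen by name, and all 10 were found among the 54532 genes of the count table. The RNA-seq libraries, 3 after bilateral ovariectomy (OVX) and 3 after sham surgery (Sham), hold RNA of B cells that magnetic beads pulled from mouse bone marrow, and are here called OVX 1 to 3 and Sham 1 to 3 by their replicate numbers. The labels of these libraries give the surgery as the only difference and state no genotype, age or time since surgery. OVX is a surgical model of menopause, in which estrogen deficiency leads to bone loss. The HIF-1α ChIP-seq sample and its input were not analysed here. The comparison asks whether the levels of these genes in marrow B cells differed between OVX and Sham.

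Developing B cells assemble immunoglobulin genes from V, D and J segments. RAG1 and RAG2 form the recombinase that cuts at recombination signals, and both are made in pro-B and pre-B cells and are low or absent in mature B cells. The Ku heterodimer (Xrcc6 and Xrcc5) binds the broken ends and recruits the kinase DNA-PKcs (Prkdc), Artemis (Dclre1c) opens the hairpin ends, terminal transferase (Dntt) adds nucleotides without a template, and XRCC4, XLF (Nhej1) and DNA ligase IV (Lig4) seal the joint. The end joining proteins are used for repair in most cells, whereas RAG1, RAG2 and terminal transferase are lymphoid.

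The libraries held 23838775 to 33136701 counts. Levels are in CPM, counts per 1000000 counts of a library after TMM scaling, and gene positions are those of RefSeq for build GRCm38.p6, since the table gives none. The B cell receptor gene Cd79a was high in every library, between 1548 and 1883 CPM, whereas the T cell gene Cd3e was between 0.0908 and 1.29 CPM. A set of 18 neutrophil genes took 0.268%, 0.372% and 1.03% of the counts in Sham 1, 2 and 3 and 0.434%, 0.116% and 0.126% in OVX 1, 2 and 3. A set of 16 immature and mature B cell genes took 1.28% in Sham 2 and between 0.617% and 0.751% in the other libraries. Sham 2 and Sham 3 stood apart in these shares. The 10 genes together took 0.243%, 0.127% and 0.173% of the counts in Sham 1, 2 and 3, against 0.197%, 0.257% and 0.254% in OVX 1, 2 and 3. In bulk RNA, fewer cells of a stage and less RNA per cell cannot be told apart.

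None of the 10 genes was called in OVX against Sham (edgeR's quasi-likelihood test over 15305 genes, with a call at an adjusted p under 0.05), and 0% of all genes were. Before adjustment, 0 of the 10 genes had a p under 0.05, against 3.75% of all genes. Without Sham 1, 5 of them did (Rag1, Rag2, Dntt, Lig4 and Xrcc6), as did 2698 of the 16051 genes tested in that fit (16.8%), and none was called. The fitted log2 fold change, OVX over Sham, was above 0 for 7 of the 10 genes and for 48.2% of all genes, with a median of 0.26 against -0.01. The median of the 10 genes was 0.12 without Sham 2 and 0.39 without Sham 1. Rag1, Rag2 and Dntt had the highest values, between 0.47 and 0.52, the ligase complex and Xrcc6 lay between 0.10 and 0.29, Prkdc and Dclre1c were near 0, and Xrcc5 was at -0.14. All 10 genes passed the filter on low counts, with the lowest count of a library, 141, for Nhej1.

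**Figure D1:**
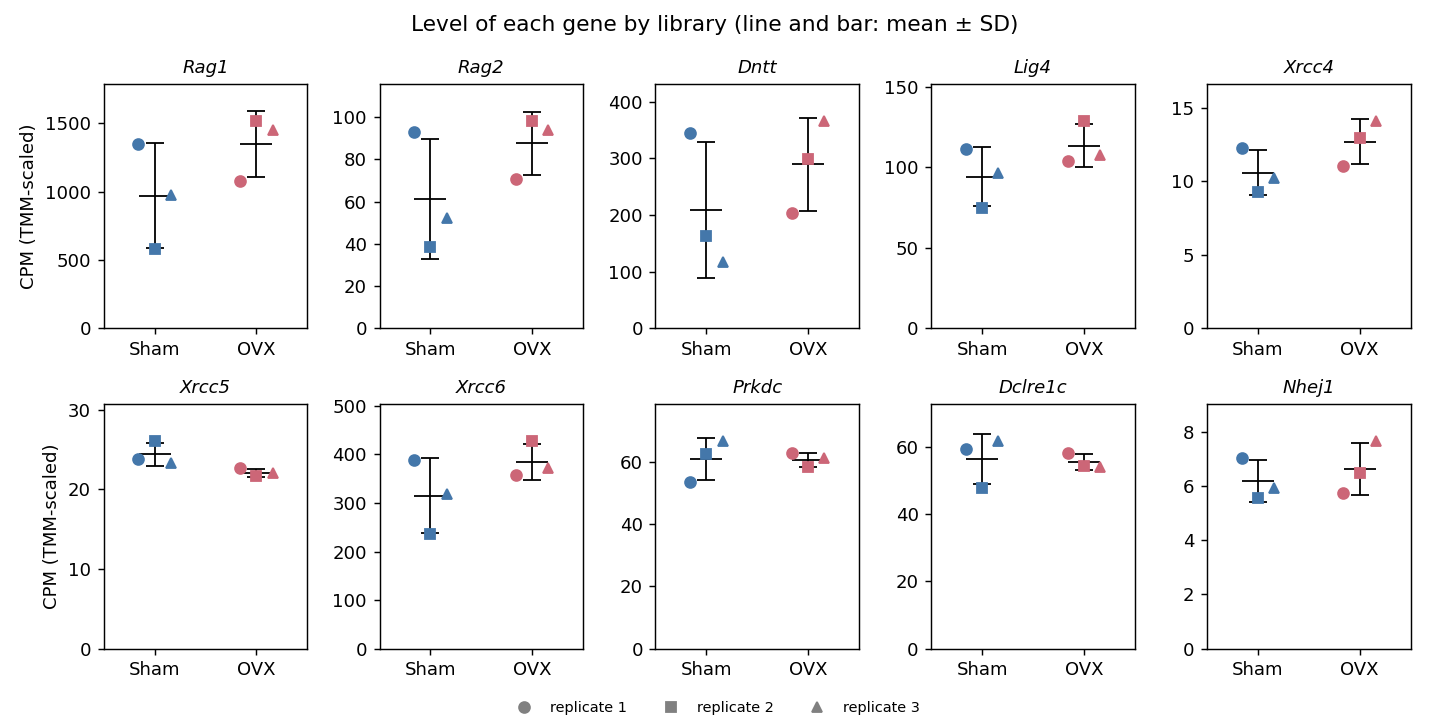
Level of each of the 10 genes in CPM (y axis, from 0) in the 3 Sham and 3 OVX libraries, with the mean and SD as line and bar. The groups overlap for 9 genes, and for Xrcc5 every OVX value is below every Sham value.

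Rag1 and Rag2 are neighbouring genes on chromosome 2 that are transcribed towards each other. Rag1 (ENSMUSG00000061311, chr2:101638252-101649532) had 1350, 581 and 975 CPM in Sham 1, 2 and 3, against 1074, 1516 and 1453 CPM in OVX 1, 2 and 3. Sham 2 was the lowest library, and Sham 1 lay within the range of OVX. The mean was 1347 ± 239 CPM in OVX and 969 ± 385 CPM in Sham (± SD over 3 libraries each), which the fit gave as a log2 fold change of 0.48 ± 0.29 (SE, 95% interval -0.20 to 1.16, edgeR adjusted p = 0.811). On the linear scale the interval runs from 0.868-fold to 2.23-fold and includes both 1 and a doubling. Without Sham 2 the log2 fold change of Rag1 was 0.21, and without Sham 1 it was 0.79.

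Rag2 (ENSMUSG00000032864, chr2:101624712-101632528), the partner that reads methylated histone H3, had 92.8, 38.6 and 52.2 CPM in Sham 1, 2 and 3 and 70.7, 98.2 and 94.0 CPM in OVX 1, 2 and 3. The order of the 6 libraries was the same as for Rag1. The log2 fold change was 0.52 ± 0.30 (SE, 95% interval -0.19 to 1.23, edgeR adjusted p = 0.811), and the values of the groups overlapped (exact permutation test, two-sided, p = 0.2, where complete separation gives 0.1). It was 0.27 without Sham 2 and 0.95 without Sham 1. Rag2 overlaps Iftap, which had 139 to 228 counts in a library, and reads of the shared stretch could have been given to either gene.

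Rag1 and Rag2 varied together over the 6 libraries (Pearson r of log2 CPM 0.97), and Rag1 did so with Xrcc6 as well (0.975). The Ku genes Xrcc6 and Xrcc5, described after them, varied in opposite directions (-0.88). Without Sham 2 and OVX 2 the r of the Ku genes was -0.05. The windows before the starts of these genes are shown for that contrast, and their part in it was not tested. They are the 250 bases before the start in the RefSeq promoter table (build GRCm38.p6, the mm10 genome named in the labels), 5′ to 3′ on the gene's strand: chr2:101649533-101649782 (minus strand) for Rag1, chr2:101624462-101624711 (plus) for Rag2, chr15:82016119-82016368 (plus) for Xrcc6 and chr1:72307171-72307420 (plus) for Xrcc5. Capitals mark matches on either strand to the hypoxia response cores ACGTG and GCGTG, the E-box CAGGTG, the second E-box form CAGCTG, the CCAAT box, the TATA box TATAAA, the estrogen response half-site GGTCA and the GC box GGGCGG.
Rag1: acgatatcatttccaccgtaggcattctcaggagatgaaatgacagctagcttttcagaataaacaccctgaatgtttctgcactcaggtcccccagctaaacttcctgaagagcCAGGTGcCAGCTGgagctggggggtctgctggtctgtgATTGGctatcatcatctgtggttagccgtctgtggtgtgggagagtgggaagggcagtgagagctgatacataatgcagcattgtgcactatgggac
Rag2: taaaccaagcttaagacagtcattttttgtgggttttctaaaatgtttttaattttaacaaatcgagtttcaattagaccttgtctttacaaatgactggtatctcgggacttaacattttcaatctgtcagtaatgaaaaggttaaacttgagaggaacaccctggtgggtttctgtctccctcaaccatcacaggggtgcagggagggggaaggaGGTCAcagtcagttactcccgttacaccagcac
Xrcc6: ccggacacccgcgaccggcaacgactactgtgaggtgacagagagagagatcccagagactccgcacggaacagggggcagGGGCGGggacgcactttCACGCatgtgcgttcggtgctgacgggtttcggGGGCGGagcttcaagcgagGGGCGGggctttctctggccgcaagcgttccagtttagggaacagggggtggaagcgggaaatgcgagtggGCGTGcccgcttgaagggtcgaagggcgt
Xrcc5: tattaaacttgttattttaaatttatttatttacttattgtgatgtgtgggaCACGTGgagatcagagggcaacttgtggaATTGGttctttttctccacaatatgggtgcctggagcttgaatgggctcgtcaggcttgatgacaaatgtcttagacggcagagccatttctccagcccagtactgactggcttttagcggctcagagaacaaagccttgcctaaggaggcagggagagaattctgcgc

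The Rag1 window holds CAGGTG and CAGCTG, which begin 135 and 128 bases before the start, and an inverted CCAAT at 97 bases. Over all 32851 windows of the table, 17.2% held CAGGTG, 13% CAGCTG and 33.8% the letters CCAAT. The Rag2 window has none of these 3 motifs and holds 1 GGTCA at 33 bases, which 35.2% of all windows held. The Xrcc6 window, which lies inside the span of the gene, has 3 GC boxes and GCGTG on each strand, where 32.7% of windows held at least 1 GC box and 28.2% at least 1 GCGTG. The Xrcc5 window holds no GC box. It has an inverted CCAAT and the palindrome CACGTG, in which ACGTG is read on both strands in overlapping positions, and 16.6% of windows held ACGTG. A match is a run of letters and no measured binding site, and none was searched for outside these bases. An entry was found for 9 of the 10 genes, Prkdc being the exception, and the Dntt window held none of the motifs.

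Dntt (ENSMUSG00000025014, chr19:41029275-41059525) varied most of the 10 genes. It had 345, 162 and 118 CPM in Sham 1, 2 and 3, against 203, 299 and 366 CPM in OVX 1, 2 and 3, so that its highest library was 3.10 times its lowest. In contrast to both Rag genes, the lowest library was Sham 3. The log2 fold change was 0.47 ± 0.40 (SE, 95% interval -0.46 to 1.40, edgeR adjusted p = 0.812), again with overlap (exact permutation test, two-sided, p = 0.3). Without Sham 3 it was 0.18, and without Sham 1 it was 1.04. Fitted with the share of neutrophil counts as covariate it was -0.03. In the same fit Rag1 was at 0.36, Rag2 at 0.28 and the median of the 10 genes at 0.13. Sham 3 had the highest neutrophil share, and the part of these cells in the Dntt result was not tested beyond this fit.

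The sealing complex was less variable. Lig4 (ENSMUSG00000049717, chr8:9970020-9977680) had 111, 74.7 and 96.8 CPM in Sham 1, 2 and 3, against 104, 129 and 108 CPM in OVX 1, 2 and 3. Its partner Xrcc4 (ENSMUSG00000021615, chr13:89848914-90089608), which holds the ligase at the break, had 12.3, 9.30 and 10.2 CPM in Sham and 11.04, 12.95 and 14.1 CPM in OVX. Both were lowest in Sham 2 and overlapped between the groups. The log2 fold changes were 0.27 ± 0.15 (SE, 95% interval -0.09 to 0.63) for Lig4 and 0.26 ± 0.16 (SE, 95% interval -0.12 to 0.65) for Xrcc4, with an adjusted p of 0.811 for both from edgeR. Without Sham 2 they were 0.12 and 0.17. Nhej1 (ENSMUSG00000026162, chr1:74967346-75125226), which encodes XLF, had 7.05, 5.57 and 5.91 CPM in Sham and 5.74, 6.49 and 7.66 CPM in OVX, with a log2 fold change of 0.10 ± 0.19 (SE). For Nhej1 the value was -0.01 without OVX 3, its highest library.

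The 2 subunits of Ku varied in opposite directions over the 6 libraries, a pattern that rested on Sham 2 and OVX 2. Xrcc6 (ENSMUSG00000022471, chr15:81987833-82040085), which encodes Ku70, had 390, 236 and 319 CPM in Sham 1, 2 and 3, against 357, 427 and 372 CPM in OVX 1, 2 and 3. Its lowest library was Sham 2 and its highest OVX 2, as for Rag1. The log2 fold change was 0.29 ± 0.18 (SE, 95% interval -0.12 to 0.70, edgeR adjusted p = 0.811) and 0.12 without Sham 2. Xrcc6 overlaps Desi1, which had 3102 to 4652 counts in a library, so its values are uncertain where the genes share sequence.

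Xrcc5 (ENSMUSG00000026187, chr1:72307417-72394953), which encodes Ku80, had 23.8, 26.0 and 23.3 CPM in Sham 1, 2 and 3 and 22.6, 21.6 and 22.1 CPM in OVX 1, 2 and 3. Sham 2 was its highest library and OVX 2 its lowest, the reverse of Xrcc6. Every OVX value was below every Sham value (two-sided exact permutation test, p = 0.1, the minimum for this design), as for 4.12% of all genes. This held also with scaling by library size, by the upper quartile or on 12 general B cell genes. The shares of all genes were then 4.87%, 4.48% and 6.24%. The difference was small, with 22.1 ± 0.503 CPM in OVX and 24.4 ± 1.45 CPM in Sham (± SD over 3 libraries each), which the fit gave as a log2 fold change of -0.14 ± 0.09 (SE, 95% interval -0.36 to 0.07, edgeR adjusted p = 0.811). With 1 gene of 10 separated, against 8.44% of all genes in either direction, the share is near the background.

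Prkdc and Dclre1c gave the narrowest limits besides Xrcc5. Prkdc (ENSMUSG00000022672, chr16:15637444-15842239) had 53.5, 62.6 and 66.5 CPM in Sham and 62.6, 58.2 and 61.0 CPM in OVX, with a log2 fold change of -0.01 ± 0.09 (SE, 95% interval -0.22 to 0.21). Dclre1c (ENSMUSG00000026648, chr2:3424061-3474211) had 59.4, 47.7 and 61.7 CPM in Sham and 58.2, 54.3 and 54.0 CPM in OVX, with a log2 fold change of -0.02 ± 0.11 (SE, 95% interval -0.27 to 0.23). For both genes the OVX libraries lay inside the range of the Sham libraries. On the linear scale the intervals run from 0.856-fold to 1.16-fold for Prkdc and from 0.829-fold to 1.17-fold for Dclre1c. Dclre1c overlaps Suv39h2, which had 336 to 490 counts in a library, and Prkdc a pseudogene, Gm52255.

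**Figure D2:**
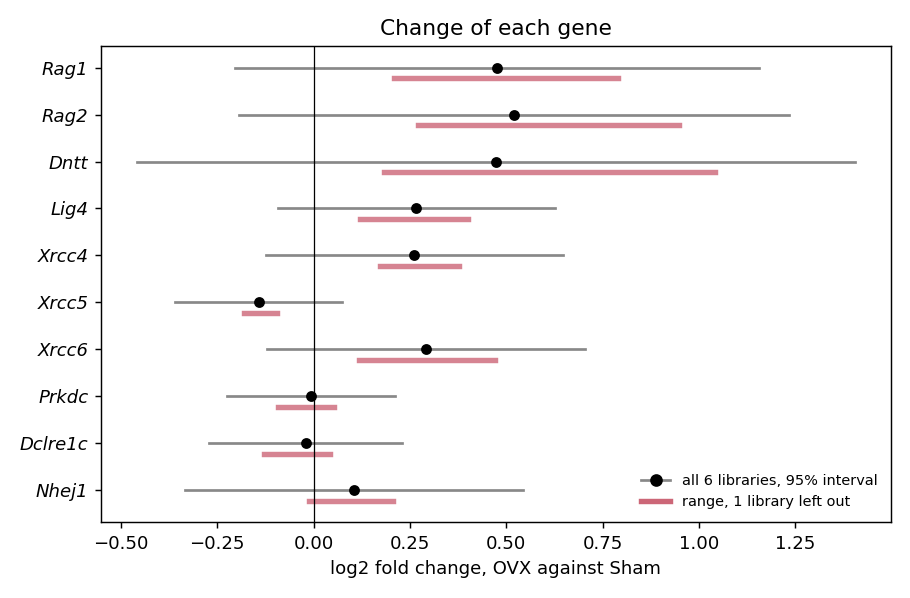
Log2 fold change of OVX against Sham (x axis) for each gene, with the 95% interval in grey and, in red, the range when 1 library at a time was left out. Every interval includes 0, the widest for Dntt from -0.46 to 1.40.

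The genes divided into those that varied strongly within the groups and those that did not. The SD of the log2 level within groups was 0.47 for Rag1, 0.49 for Rag2 and 0.64 for Dntt, higher than for 79.3%, 80.2% and 87.3% of all genes tested. It was 0.28 for Xrcc6 and 0.24 for Lig4, near the 0.19 of the median gene for Xrcc4 and Nhej1, and 0.12 and 0.15 for Prkdc and Dclre1c. Xrcc5, at 0.06, was among the least variable genes, with 8.52% of all genes at or below it. Rag1, Rag2 and Dntt spread more in Sham than in OVX. Their SD was 385 against 239 CPM, 28.2 against 14.8 CPM and 121 against 82.0 CPM.

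Across the 6 libraries the log2 levels of Rag1 and Rag2 followed each other, with a Pearson r of 0.97 and a Spearman rho of 1.0. Rag1 had an r of 0.975 with Xrcc6, 0.96 with Lig4, 0.93 with Xrcc4, 0.74 with Dntt and -0.88 with Xrcc5. These values describe 6 libraries that share their scaling and both groups. Sham 2 and OVX 2 lay farthest from the median of Rag1. Without them, the r of Rag1 was 0.959 with Rag2, 0.97 with Dntt and 0.967 with Xrcc4. Over the same 4 libraries it was 0.86 with Xrcc6 and 0.88 with Lig4. With Xrcc5 it was -0.28, so that the inverse pattern of Xrcc5 rests on Sham 2 and OVX 2. Xrcc6 followed Lig4 more closely (r of 0.99) than its partner Xrcc5 (r of -0.88). Without Sham 2 and OVX 2 these r values were 0.997 and -0.05, so that the opposite pattern of the Ku genes also rests on those libraries. Of 9251 other genes with a mean of at least 10 CPM, 4.75% had an r over 0.95 with Rag1 and 1.15% with Dntt. An r under -0.8 with Rag1, as Xrcc5 had, was found for 11.2% of them. The closest to Rag1 were Nudt3, Diras2, Cyth1, Rprd1a and Cdyl, and the closest to Dntt were Frmd6, 2900026A02Rik, Luc7l3, Zfyve1 and Zfp629.

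Sham 2 was the lowest library for 7 of the 10 genes, against 28.8% of all genes tested. Among the 14 pro-B and pre-B genes it was the lowest for 7. It was the highest for 13 of the 16 immature and mature B cell genes, against 25.7% of all genes tested. Il7r, the interleukin-7 receptor of early B cells, had 220 CPM there and 266 to 363 CPM elsewhere, whereas Fcer2a, a marker of mature B cells, had 433 CPM there and 131 to 200 CPM elsewhere. Fitted with the share of the mature B cell genes as a covariate, which was chosen with the values already known, the log2 fold changes were 0.31 for Rag1, 0.36 for Rag2, 0.36 for Dntt and 0.18 for Xrcc6, all without a call. Their part in the result was not tested further.

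**Figure D3:**
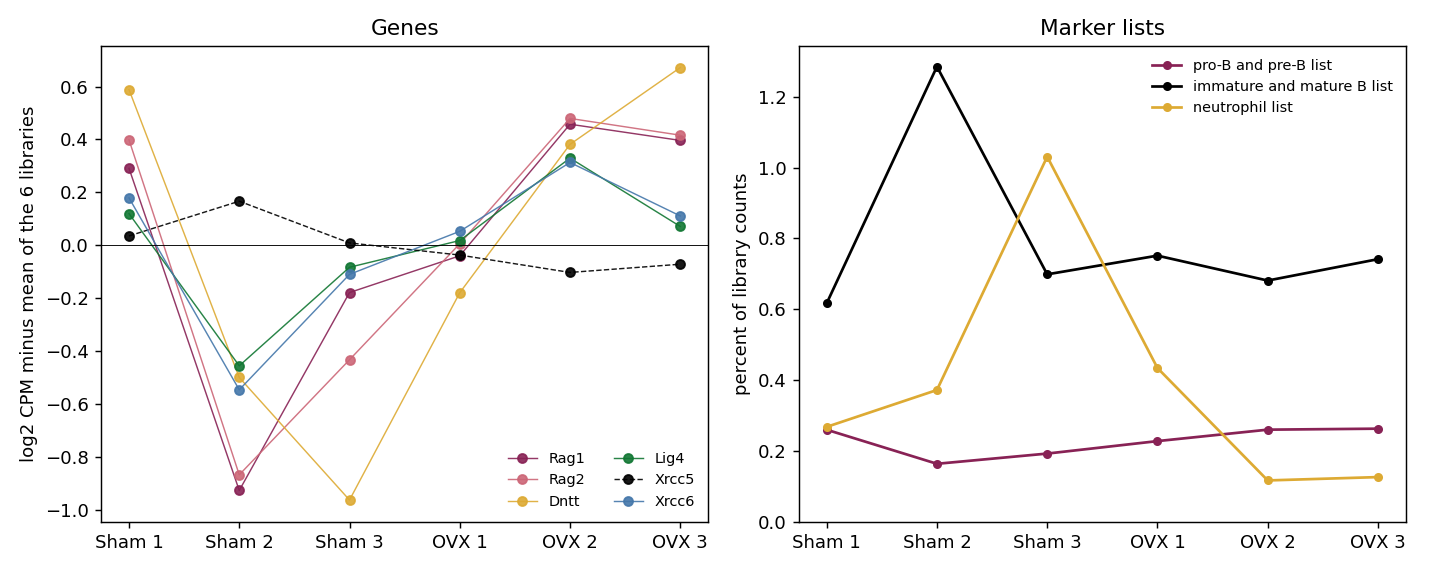
Left, log2 CPM of 6 genes minus their mean over the 6 libraries, where the lines join the points of a gene. Right, the share of library counts in 3 marker sets, where Sham 2 stands out at 1.28% for the immature and mature B cell genes and Sham 3 at 1.03% for the neutrophil genes.

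Ratios of 2 genes within a library do not depend on how libraries are scaled, and 6 were compared. The log2 ratio of Rag1 to Rag2 counts was 3.86, 3.91 and 4.22 in Sham 1, 2 and 3 and 3.92, 3.95 and 3.95 in OVX 1, 2 and 3. The recombinase pair thus kept its ratio within 0.36 log2 units while Rag1 varied 2.61-fold and Rag2 2.54-fold, with Sham 3 highest, and OVX differed from Sham by -0.06 (two-sided exact permutation test, p = 1.0). The log2 ratio of Xrcc5 to Xrcc6 was -4.04, -3.18 and -3.77 in Sham and -3.98, -4.31 and -4.07 in OVX, a difference of -0.46 (exact permutation p = 0.2, adjusted over the 6 ratios 0.9). It was -0.22 without Sham 2, the highest library.

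For the ligase pair, the log2 ratio of Lig4 to Xrcc4 lay between 2.93 and 3.31 and differed by 0.02 between the groups (exact permutation p = 1.0). Its SD was 0.20 in OVX and 0.12 in Sham, beside 0.24 within groups for the log2 level of Lig4 and 0.19 for Xrcc4. The log2 ratio of Dntt to Rag1 was -1.97, -1.84 and -3.05 in Sham and -2.40, -2.34 and -1.99 in OVX, with a difference of 0.04 (exact permutation p = 1.0). Sham 3 was the lowest library, with the next at -2.40, and without it the difference was -0.34. Relative to genes of early B cells, the log2 ratio differed by 0.20 for Rag1 to Il7r (exact permutation p = 0.6) and by 0.33 for Dntt to Igll1, a surrogate light chain gene (exact permutation p = 0.3). Without Sham 2 these differences were 0.014 and 0.19, and without Sham 1 they were 0.33 and 0.57. The groups overlapped in all 6 ratios.

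**Figure D4:**
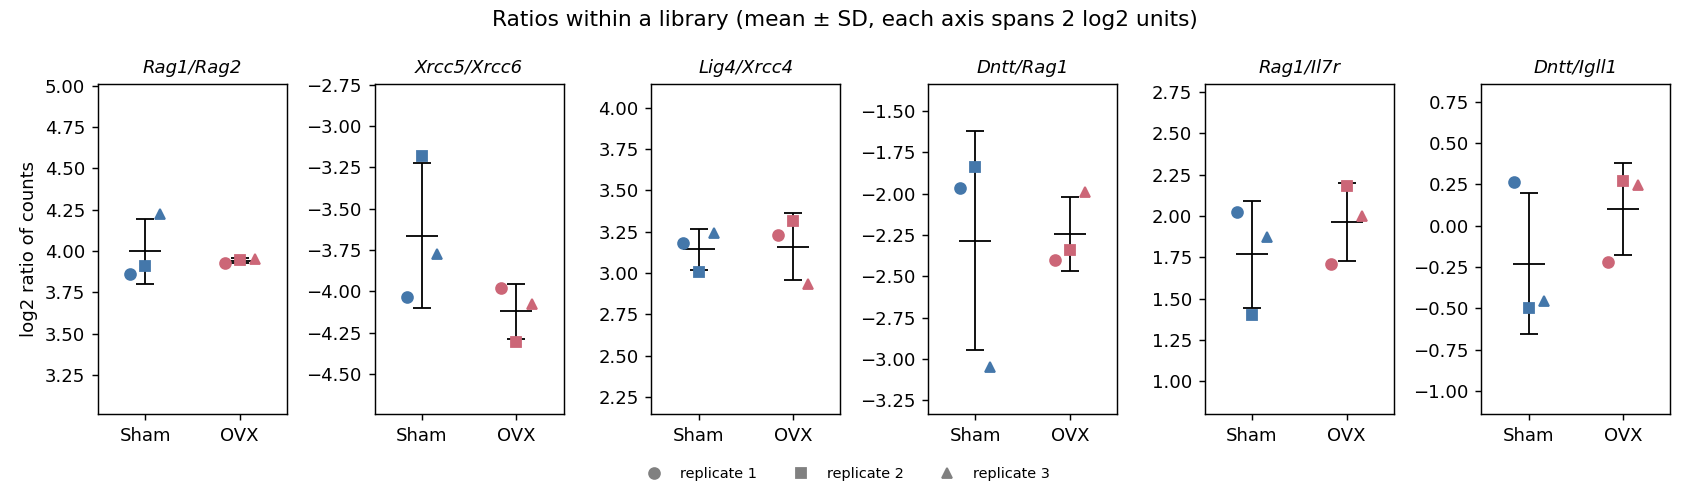
Log2 ratio of the counts of 2 genes within each library (y axes span 2 log2 units each), with mean and SD per group. The Rag1 to Rag2 ratio lies between 3.92 and 3.95 in OVX, and Sham 3 is the lowest library, at -3.05, for Dntt to Rag1.

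The other genes of the pathway were taken from 3 lists. Of 16 accessory genes of end joining, 0 were called and 0 had an unadjusted p-value under 0.05, 11 had a log2 fold change above 0, and the median was 0.02. Polm and Poll encode the gap-filling polymerases related to terminal transferase. Polm had 171 CPM in Sham 2 and 245 to 284 CPM elsewhere, and Poll had 19.3 CPM in Sham 2 and 10.7 to 12.5 CPM elsewhere, so that the 2 relatives stood on opposite sides in that library. Their log2 fold changes were 0.18 ± 0.16 (SE) and -0.36 ± 0.22 (SE). Parp3, which is activated by DNA breaks, was at -0.13 ± 0.10 (SE). Paxx, a relative of Xrcc4 and Nhej1, was at 0.03 ± 0.08 (SE) with 28.8 to 32.2 CPM in all libraries.

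Of 17 tested genes of break sensing and end protection, 0 were called, 0 had an unadjusted p-value under 0.05 and 11 were above 0, with a median of 0.03. H2ax, listed as H2afx, encodes the histone that is phosphorylated around breaks and had a fitted log2 difference of 0.33 ± 0.20 (SE), from 243 CPM in Sham 2 to 462 CPM in OVX 2. Rnf168, which ubiquitinates histones at breaks, was at 0.12 ± 0.07 (SE). Atm, the kinase that signals breaks, was at -0.12 ± 0.10 (SE).

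Of 18 RAG cofactors and regulators, 0 were called, 13 were above 0, and the median was 0.11, or 0.046 without Sham 2 and 0.18 without Sham 1. Sham 2 was the lowest library for 14 of the 18. Ebf1, a transcription factor of early B cells, was the 1 gene with an unadjusted p-value under 0.05, where 1.47% of all genes passed in that direction. Its levels were 521, 382 and 454 CPM in Sham and 550, 588 and 595 CPM in OVX, with every OVX value above every Sham value, as for 4.33% of all genes, and a fitted log2 difference of 0.35 ± 0.12 (SE, edgeR adjusted p = 0.811). Foxo1, an activator of both Rag genes, had a fitted log2 difference of 0.21 ± 0.10 (SE) with overlapping groups. Cdk2, the kinase that marks RAG2 for degradation in S phase, was at 0.12 ± 0.06 (SE). Its OVX libraries, from 145 to 155 CPM, lay above those of Sham, from 135 to 144 CPM. Ebf1 and Cdk2 were the 2 of the 18 genes separated in this direction, against 4.33% of all genes. The DNA-bending proteins Hmgb1 and Hmgb2, which assist RAG cutting, were at 0.17 ± 0.14 (SE) and 0.14 ± 0.14 (SE).

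Markers of B cell stages and of other cells were examined in the same way. Of the 14 pro-B and pre-B genes, 11 were above 0, with a median of 0.20 that was 0.12 without Sham 2, 0.066 without Sham 3 and 0.42 without Sham 1. Flt3, a receptor of early progenitors, was the 1 gene of this list with an unadjusted p-value under 0.05, at -0.64 ± 0.24 (SE) with 3.25 to 7.48 CPM, where 2.28% of all genes passed in that direction. Il7r and Sox4 were at 0.33 ± 0.14 (SE) and 0.43 ± 0.20 (SE). Of the 16 immature and mature B cell genes, 3 were above 0, and the median of -0.31 was 0.13 without Sham 2. The 17 cell cycle genes had a median of 0.10, which was -0.04 without Sham 2, and Sham 2 was the lowest library for 16 of them. All 18 neutrophil genes were below 0, with a median of -1.29, which was -0.57 without Sham 3 and -2.42 without OVX 1. All 16 monocyte and macrophage genes and all 12 erythroid genes were also below 0. Their medians were -0.56 (0.02 without Sham 2) and -0.78 (-1.05 without Sham 1 and -0.54 without OVX 2). Of 11 T and NK cell genes, 10 were below 0, with a median of -0.92 that was -0.67 without Sham 3 and -1.93 without OVX 1. The T and NK cell list took only 0.00448% to 0.00833% of the counts of a library, so its values rest on low levels. The 12 general B cell genes, the 8 plasma cell genes and the 7 genes of plasmacytoid dendritic cells had medians of 0.09, -0.07 and -0.36. Before adjustment 4 of the 12 erythroid, 2 of the 8 plasma cell, 2 of the 11 T and NK cell and 2 of the 16 monocyte and macrophage genes were lower in OVX with a p under 0.05, where 2.28% of all genes were. None of the genes in these lists was called.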

How the data were processed

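Libraries made by RNA-seq from marrow B cells (3 Sham, 3 OVX) were used. The study gives 3 mice per group, but no label ties a library to a mouse, so p-values measure the spread between libraries. The authors deposited raw read counts per Ensembl gene. CASAVA and Bowtie 0.12.2 and build mm10 are named in the submitters' processing notes. The counting tool, annotation and strand setting are not given in the sources used here. Symbols were found for 54409 of 54532 identifiers.

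The counts were fitted with edgeR 4.0.16 (R 4.3.3) after filterByExpr by group (15305 genes kept) and TMM scaling, with the quasi-likelihood test and Benjamini-Hochberg adjustment over all genes tested. A standard error is the log2 fold change divided by the square root of F, and intervals use the t distribution of that fit. Single genes and ratios were compared by two-sided exact permutation tests. Transcript lengths were not used, so levels of different genes, as of Cd79a and Cd3e, are not corrected for length. Genes and lists were chosen with earlier results of these data known. Named genes are the 10 members, at most 3 genes of a list with the lowest p-values, and the 5 genes most correlated with Rag1 and with Dntt among those with at least 10 CPM. Some genes that this rule names are not reported here. Cd79a, Cd3e, Polm, Paxx, Hmgb1, Hmgb2 and Igll1 were named for their role or, as Polm, after their values were seen. limma 3.58.1 and DESeq2 1.42.0 were alternatives, and the fits were checked on simulated counts. Promoter windows came from RefSeq (GRCm38.p6).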

Additional observations from a re-analysis of the deposited data

How the results depend on the processing

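None of the 10 genes and none of the genes tested was called in any of the 16 alternative fits, DESeq2, limma-voom and the 6 fits that each left out 1 library included. The mature B cell covariate was chosen with the values already known. With 3 libraries a group the 95% intervals of Rag1, Rag2 and Dntt each run from below 0 to above 1 on the log2 scale, and the causes of the shifts were not tested.

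Genes at an unadjusted p-value under 0.05 numbered 574, against 1269 without the filter on low counts, 206 with the replicate block, 185 with the neutrophil covariate and 233 (without OVX 2) to 2698 (without Sham 1) when 1 library was left out. Without Sham 2 they were 360, without Sham 3 286 and without OVX 1 988. With TMM 225 were higher and 349 lower, and with scaling on the B cell genes 80 and 508, which moved the median of all genes from -0.01 to -0.07. Of the 10 genes, 1 passed this limit without the filter and 1 with DESeq2 (Rag2 in both, unadjusted p = 0.0443 and 0.0489), and 0 to 5 did when 1 library was left out. The 5 were Rag1, Rag2, Dntt, Lig4 and Xrcc6 without Sham 1, the Sham library with the most Rag1. The number with a log2 fold change above 0 was 7 to 9.

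Of 160 values of the 10 genes, 11 changed sign, and all but those of Dntt and Nhej1 belonged to genes near 0. With the neutrophil covariate Dntt was at -0.035, Prkdc at 0.096 and Dclre1c at 0.064. Prkdc was at 0.017 with the mature B cell covariate, 0.012 without Sham 2, 0.054 without Sham 3 and 0.023 without OVX 2, and its range was -0.093 to 0.054. Dclre1c was at 0.018, 0.044 and 0.0011 without Sham 1, Sham 3 and OVX 3, and its range was -0.13 to 0.044. Nhej1 ranged from -0.011 to 0.21. Group differences in log2 ratios ranged from -0.13 to 0.054 for Rag1 to Rag2, from -0.061 to 0.13 for Lig4 to Xrcc4 and from -0.34 to 0.26 for Dntt to Rag1 when 1 library was left out, reversing without Sham 3 for Rag1 to Rag2, without Sham 2 (-0.052), OVX 1 (-0.021) or OVX 2 for Lig4 to Xrcc4, and without Sham or OVX 3 for Dntt to Rag1 (-0.088 without the latter). Of the 6 ratios, 0 to 2 then separated the groups. Of 224 list medians, 10 moved by more than the spread between libraries.

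No pairing of libraries by number was seen across groups. Same-numbered libraries deviated from their group means with correlations of -0.383, -0.169 and -0.268, and no library correlated best with its own number. Deviations from means of 3 libraries cannot exclude a pairing. With the replicate block Rag1 was at 0.54, Rag2 at 0.61 and Dntt at 0.60, and 0 genes were called.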
